A study of Vanessa cardui and Junonia coenia with 16 samples.

Results

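The 150 transcripts described here are the painted lady (Vanessa cardui) assembly rows whose level was most clearly higher in wings labelled as optix knockouts than in wild-type forewings. They were selected on measured values. A row had to reach at least 5 FPKM in all 4 melanin-stage knockout libraries, and its lowest knockout value had to exceed its highest wild-type value by at least 1 on the log2(FPKM + 1) scale, a difference called the gap here. FPKM, the deposited unit, counts sequenced fragments relative to transcript length and to the mapped fragments of the library. Of 74995 rows, 6770 reached 5 FPKM in the 4 knockout libraries, 256 also had the gap, and the 150 largest gaps were taken. The levels of wild-type and knockout libraries are therefore given as a description, with nothing drawn from their difference.

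Optix encodes a homeobox transcription factor of the Sine oculis family that marks red and orange wing scales in nymphalid butterflies. Scale cells of a butterfly wing make their pigments late in pupal life. The orange to red ommochromes are made from tryptophan, through enzymes such as those encoded by vermilion and cinnabar, and the dark melanins from tyrosine, through enzymes such as tyrosine hydroxylase and DOPA decarboxylase. Each scale usually carries 1 dominant pigment type, so a change of scale identity exchanges one set of enzymes for the other. None of these genes could be looked up: the files give the rows identifiers of an assembly, and 0 of them matched the reference table of 15000 V. cardui genes, so rows are called by identifier and no function is assigned to them.

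All animals were reared at 27 °C on an artificial diet. The series holds 16 libraries from 2 butterfly species, of which 8 are from the painted lady. The melanin stage was represented by forewings of wild types (2 libraries) and by forewings and hindwings of knockouts (2 libraries each), and these knockout wings carry the label of large defects. No wild-type hindwing was analysed here, so the hindwing values lack a wild-type counterpart of their own wing. At the stage named for ommochromes there was 1 knockout animal with asymmetric mosaic forewings, 1 wing with very small and 1 with large defects, and each gave 1 library. The labels do not give the share of edited cells in a wing, and optix itself could not be identified, so genotype rests on the labels. The labels call the libraries biological replicates but do not say how many animals each holds.

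Among the 8 libraries relative depth, estimated from the lowest FPKM values, ran from 1.0 in knockout forewing 1 to 3.07 in wild-type forewing 1, although the pair formed by these 2 libraries departed from the estimate by 1.01 (log2). Total FPKM was 796362 and 909284 in the wild types, 1076494 to 1182722 in the 4 knockouts and 1134028 and 1199017 in the ommochrome-stage wings, so it moved with genotype. Scaling by the median of ratios gave factors of 0.887 to 1.12, and 145 of the 150 members still passed the rule with it. With quantile normalization 146 did.

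Across the members, the median level was 3.39 and 3.27 FPKM in the wild-type forewings. It was 26.5 and 19.5 FPKM in the knockout forewings and 26.1 and 22.4 FPKM in the knockout hindwings. In the ommochrome-stage wings it was 16.3 FPKM with small defects, below every knockout, and 19.6 FPKM with large ones, at the lower end of the knockouts. The same thresholds turned round, with wild types of at least 5 FPKM and knockouts lower by the gap, took 939 of 9186 rows (10.2%), against 256 of 6770 (3.78%) for rows that were higher in knockouts. In whole wings, fewer cells of a kind and less RNA per cell cannot be told apart.

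**Figure D1:**
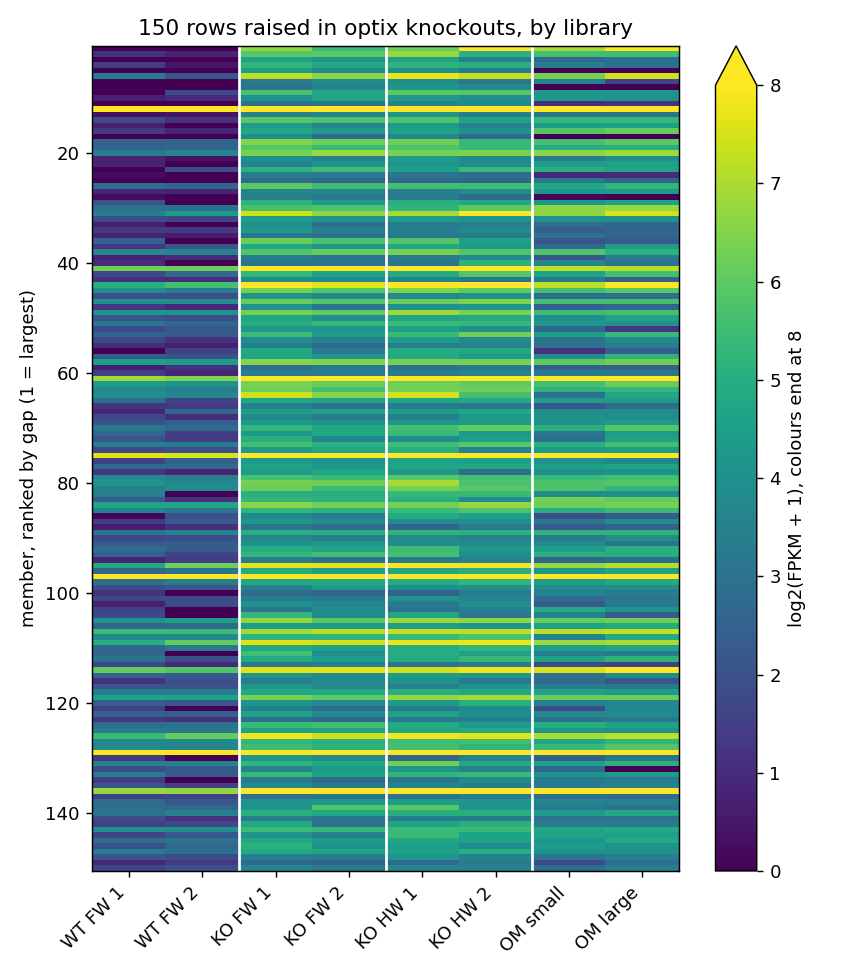
Level of each of the 150 members (rows, ranked by gap) in the 8 libraries (columns), as log2(FPKM + 1), for wild-type (WT), knockout (KO) and ommochrome-stage (OM) wings, forewing (FW) or hindwing (HW). Colours end at 8, which c55387_g1, c27576_g1 and c25456_g3 exceeded in every library, so these rows show no difference. In all other rows the 2 wild-type columns are darker than the 4 knockout columns, as the selection required. Most rows stay bright in the 2 ommochrome-stage columns.

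The gaps ran from 1.23 to 5.46, with a median of 1.61. They reached 1.5 in 89 members, 2 in 40, 3 in 8 and 4 in 1. The last member taken, c6770_g1, was at 2.10 and 2.88 FPKM in the wild types and at 8.11 to 11.6 FPKM in the knockouts (gap 1.23). The first row left out, c27818_g3, had 8.11 and 17.1 FPKM in the wild types and 41.5 to 68.9 FPKM in the knockouts (gap 1.227), so the end of the list falls within a continuous series of values. At the edge of the rule itself c20415_g2 had a gap of 1.002 and c48036_g1 one of 0.999.

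The members differed in how much wild-type transcript there was. Of the 150, 8 had a listed level of 0 in both wild types, 18 in 1 of them and 124 above 0 in both. Zeros were more frequent in wild-type forewing 2 (23 members) than in the deeper wild-type forewing 1 (11 members). At least 1 FPKM in both wild types was found in 102 members, whose mean over the 4 knockouts was 2.69 to 25.6 times the mean of the wild types, with a median of 5.11. Most members were thus transcripts already measurable in the wild-type forewing, and 29 were at 10 FPKM or more in both wild types.

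The largest gap belonged to c7526_g1. Both wild types had it at 0, against 99.2 and 42.9 FPKM in the knockout forewings and 71.5 and 266 FPKM in the knockout hindwings. The ommochrome-stage wings held 120 FPKM (small defects) and 242 FPKM (large defects). The row was therefore present in all 6 libraries from knockout animals and in neither wild type, and it is the single row of its assembly component.

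The second gap was that of c27965_g1. It had 1.27 and 0.746 FPKM in the wild types, 59.0 and 61.0 FPKM in the knockout forewings, and 107 and 33.0 FPKM in the knockout hindwings. The mosaic wings were at 46.6 and 45.7 FPKM, inside the range of the knockouts. A second row of the same component, c27965_g2, was a member too, at 16.5 and 12.4 FPKM in the wild types and 50.9 to 124 FPKM in the knockouts.

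A pair of very abundant rows made up most of the members' share of total FPKM in every library except wild-type forewing 2. The more abundant, c55387_g1, was at 7813 and 448 FPKM in the wild types, 101257 and 58785 FPKM in the knockout forewings and 75065 and 90136 FPKM in the knockout hindwings. It ranked 13 and 195 among all rows in the wild types, and 1 or 2 in each knockout library, where it held 5.46% to 8.66% of total FPKM. The ommochrome-stage wings were at 61567 and 85467 FPKM, also rank 2.

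The other abundant row, c27576_g1, was at 4144 and 285 FPKM in the wild types, 14826 and 12285 FPKM in the knockout forewings and 11205 and 11546 FPKM in the knockout hindwings, and at 17689 and 16629 FPKM in the ommochrome-stage wings. Both rows differed more between the wild-type forewings than nearly all other members: wild-type forewing 1 held 17.4 times the c55387_g1 and 14.6 times the c27576_g1 of wild-type forewing 2. Among members above 0 in both wild types, 3 were at least 10 times higher in wild-type forewing 1 and 1 in wild-type forewing 2. The size of the gap of both rows was thus set by wild-type forewing 1. Without it the gap of c55387_g1 was 7.03 in place of 2.91, and that of c27576_g1 was 5.29 in place of 1.43. With quantile normalization the gap of c27576_g1 was 0.72, under the minimum of the rule.

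All 150 members together held 1.72% and 0.282% of total FPKM in the wild types, 10.7% and 7.29% in the knockout forewings, 8.48% and 9.38% in the knockout hindwings, and 7.49% and 9.11% in the ommochrome-stage wings. Without these 2 rows the shares were 0.218% and 0.202% in the wild types, 0.685% to 0.882% in the knockouts, and 0.50% and 0.60% in the ommochrome-stage wings. Wild types and knockouts did not overlap in either form, which the choice of the rows required. Without the 2 rows the ommochrome-stage wings lay between them.

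**Figure D2:**
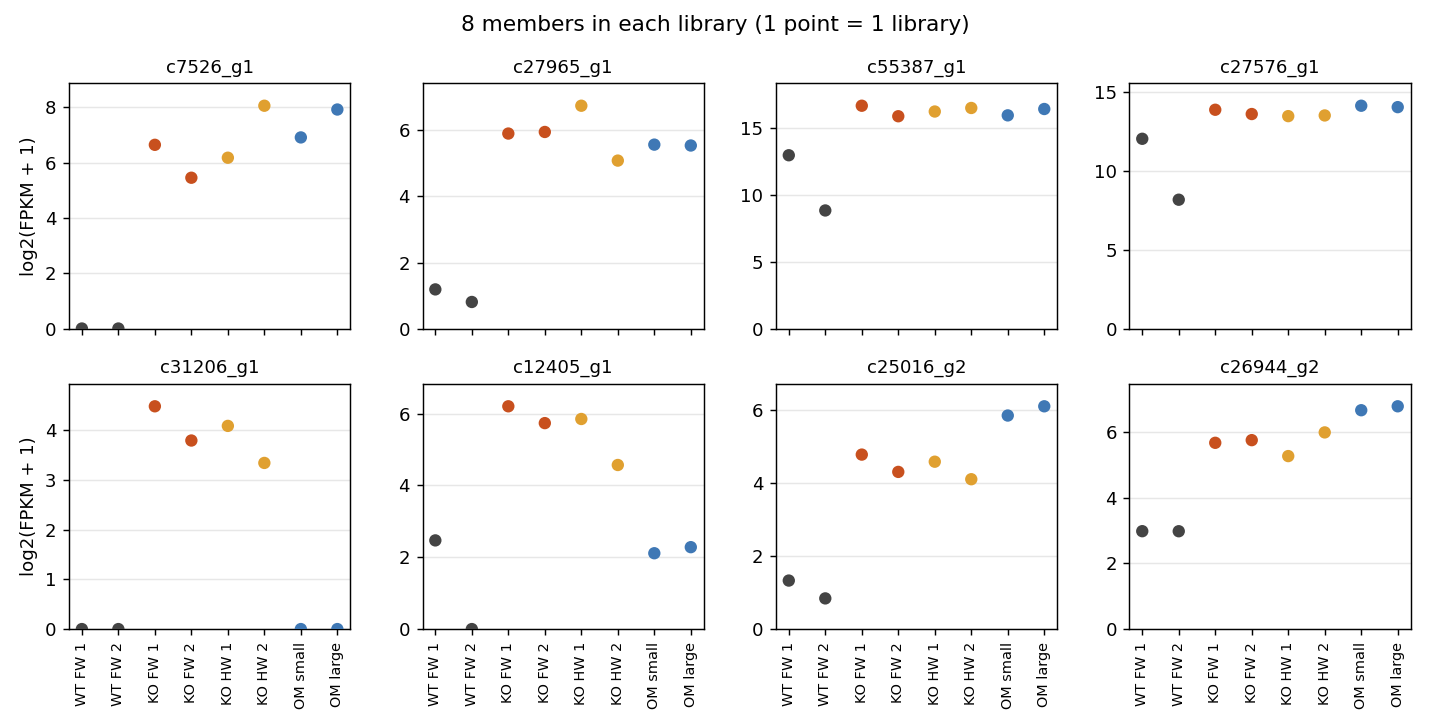
Level of 8 members in each library as log2(FPKM + 1), 1 point per library, with wild type in grey, knockout forewing in dark orange, knockout hindwing in yellow and ommochrome-stage wings in blue. The abundant rows c55387_g1 and c27576_g1 differ most between the wild types, and the ommochrome-stage wings sit at 0 for c31206_g1 and above all knockouts for c25016_g2.

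Replicates differed somewhat more for the members than over all rows past the same minimum in the knockouts, which include the members and were not matched on level. The median SD between the 2 libraries of a group was 0.26 (log2) in knockout forewings and 0.27 in knockout hindwings, against 0.19 and 0.23 over the 6770 rows with at least 5 FPKM in the 4 knockouts. Knockout forewing 2 was the lowest of the 4 knockouts in 81 members, and so set their gap, followed by knockout hindwing 2 in 36, knockout hindwing 1 in 18 and knockout forewing 1 in 15. In 12 members the 4 knockouts spread over more than the gap itself.

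In a model fitted to all 19184 rows that averaged 1 FPKM or more (limma on log2(FPKM + 1), n = 2 per group, Benjamini-Hochberg adjustment), 26 of the 150 members were called higher in knockout than in wild-type forewings at an adjusted p of 0.05, and 0.146% of all rows were. Adjusted p over the members ran from 0.0475 to 0.173. This contrast is the one that chose the rows, and the count is given for description. It fell to 0 when any 1 of the 4 knockout libraries was left out (unadjusted p under 0.05 in 139 to 148 members), and was 12 without wild-type forewing 1 and 9 without wild-type forewing 2.

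The ommochrome-stage wings were not used to choose the members. Both lay above both wild-type forewings in 138 of the 150 members, and by at least 1 (log2) in 105 (70.0%). Over all rows that averaged 1 FPKM or more in the 8 libraries that share was 3.39%, and over the rows with at least 5 FPKM in the 4 knockouts it was 4.06%. The wild-type values that serve as the reference here were required to be low for the members and not for these other rows, so part of the distance comes with the choice. Stage and genotype cannot be told apart in it either, because no wild type of the ommochrome stage is among the libraries, and both wings come from 1 animal. Another 106 rows passed the rule with smaller gaps, outside the 150. Of these, 42 (39.6%) had both wings at least 1 above both wild types.

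Set against the knockouts, the members fell into 4 kinds. The shares of other rows in these kinds were not computed, so the counts only describe the members. In 52 members both ommochrome-stage wings were at or above the lowest melanin-stage knockout, and in 45 both lay between the highest wild type and the lowest knockout. In 5 both were at or below the highest wild type, and in the remaining 48 the wings fell into different ranges. Of these 48, 33 had the large-defect wing alone at or above the lowest knockout, 8 had the small-defect wing alone there, and 7 had 1 wing at or below the highest wild type. The first 2 kinds had like levels at the melanin stage, with median knockout means of 29.0 and 25.1 FPKM and median wild-type means of 3.47 and 3.97 FPKM.

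The 5 members that were low in both mosaic wings had a median gap of 2.77, against 1.56 to 1.60 for the other kinds. The row c31206_g1 had a listed level of 0 in the wild types and in the ommochrome-stage wings, and was at 21.3 and 12.9 FPKM in the knockout forewings and 16.0 and 9.14 FPKM in the knockout hindwings. The row c12405_g1 was at 4.54 and 0 FPKM in the wild types, 72.7 and 52.3 FPKM in the knockout forewings, 56.7 and 22.7 FPKM in the knockout hindwings, and 3.32 and 3.86 FPKM in the ommochrome-stage wings. The other 3 are named here after their values were seen: c39841_g1 and c38954_g1 were likewise 0 in those 4 libraries, and c26288_g2 was at 0.207 and 0 FPKM in the wild types and 0.091 and 0 FPKM in the ommochrome-stage wings. In these rows the melanin-stage knockouts stood above the other 4 libraries.

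At the other end were members above the knockouts. The row c25016_g2 was at 1.51 and 0.791 FPKM in the wild types and 26.5 and 18.8 FPKM in the knockout forewings, with 23.0 and 16.2 FPKM in the knockout hindwings. Both ommochrome-stage wings were higher, at 56.8 FPKM (small defects) and 67.8 FPKM (large defects). A second member of its component, c25016_g5, behaved alike, with 4.01 and 1.21 FPKM in the wild types, 13.6 to 38.2 FPKM in the knockouts and 78.9 and 68.0 FPKM in the mosaic wings. The row c26944_g2 was at 6.87 FPKM in each wild type, 37.3 to 62.2 FPKM in the 4 knockouts, and 99.8 and 109 FPKM in the ommochrome-stage wings. Both mosaic wings exceeded all 4 knockouts in 9 members, and the share of other rows that did so was not computed.

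**Figure D3:**
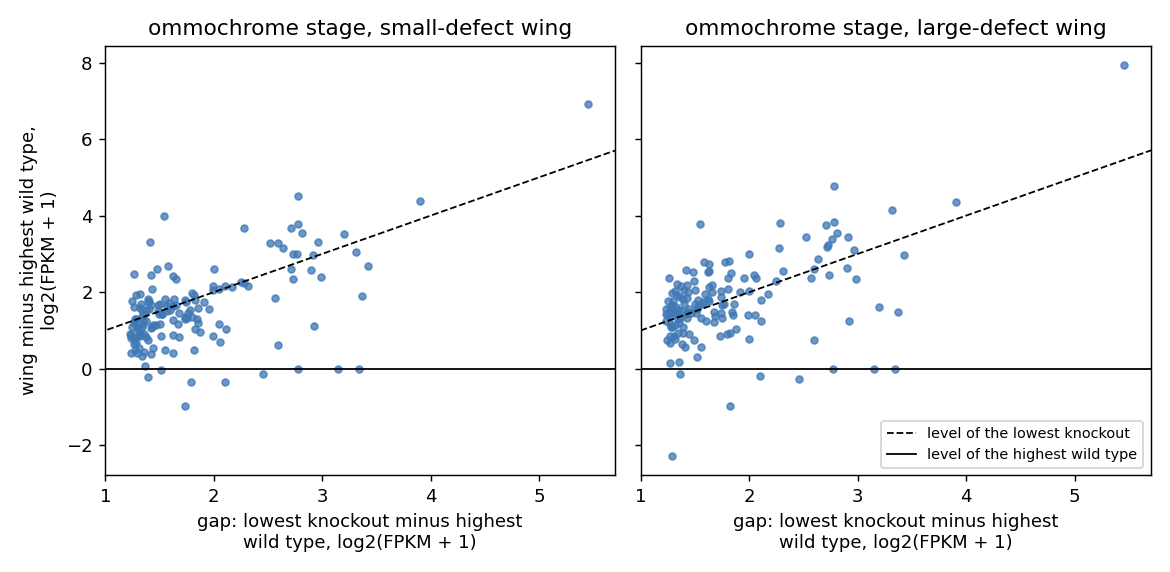
For each of the 150 members, the ommochrome-stage wing minus the highest wild type (vertical, log2(FPKM + 1)) against the gap (horizontal, same scale), for the small-defect wing (left) and the large-defect wing (right). Points on the dashed line equal the lowest knockout, and points on the solid line equal the highest wild type. On or above the dashed line are 60 members on the left and 85 on the right. The share of other rows there was not computed.

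The mosaic animal also allows a comparison of its wings with each other, of which neither library was used by the rule. There was 1 library per wing, so there is no replicate check and no test. The large-defect wing was higher in 103 of the 150 members (68.7%), lower in 44 and equal in 3. The share of rows higher in that wing was 40.1% over all rows of this minimum mean and 49.4% over the rows with at least 5 FPKM in the 4 knockouts. The median difference was 0.18 (log2) over the members and 0.00 (-0.0032) over the latter rows.

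Differences of at least 1 (log2) towards the large-defect wing were found in 13 members (8.67%), against 4.75% of all rows and 1.36% of the rows with at least 5 FPKM in the knockouts. In the opposite direction there were 4 members (2.67%), against 10.8% and 2.13%. The share above 0 depended on scaling: with the median of ratios the large-defect wing was higher in 117 members (78%) and in 64.1% of the rows with at least 5 FPKM in the knockouts, and with quantile normalization in 114 members (76.0%) and 59.9%. The members' share was above that of the other rows each time. Among the 106 rows that passed the rule outside the 150, the large-defect wing was higher in 89 (84.0%), with 3 past a difference of 1 and 0 past -1.

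The largest difference towards the large-defect wing was that of c52621_g1. It held 2.60 FPKM where defects were small and 12.3 FPKM where they were large. It was at 1.86 and 0 FPKM in the wild types and 6.22 to 13.7 FPKM in the knockouts. Next came c32196_g1, with mosaic wings at 6.73 and 26.3 FPKM, 14.1 and 11.4 FPKM in the wild types, 166 and 89.6 FPKM in the knockout forewings and 180 and 49.2 FPKM in the knockout hindwings. In the first row the small-defect wing was just above the wild types and the large-defect wing within the knockouts, while in the second both mosaic wings were below every knockout library and the small-defect wing was also below both wild types. The large-defect wing of c32196_g1 was 0.88 (log2) under the lowest knockout, and the 4 knockouts themselves were wide apart.

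In the other direction the most extreme member was c44559_g1 (-2.69, log2), named here after its values were seen. It was at 5.455 FPKM where defects were small and 0 where they were large, under the 10 FPKM required for naming. Among members that reached 10 FPKM in a mosaic wing, c27015_g3 had 10.6 FPKM where defects were small and 2.07 FPKM where they were large. It was at 0 in the wild types and at 8.18 to 14.9 FPKM in the knockouts. The sum over its assembly component had no gap (-1.09, log2). The row c51414_g1 had 10.5 and 4.07 FPKM there, 2.39 and 0 FPKM in the wild types, 38.5 and 12.7 FPKM in the knockout forewings and 25.7 and 7.98 FPKM in the knockout hindwings. Its knockout replicates differed more than the mosaic wings did.

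The knockout hindwings and forewings give the 1 replicated comparison that the rule did not use, although all 4 libraries had to be high. No member was called (limma, 0 of 150; 2 members higher and 1 lower at an unadjusted p under 0.05; smallest adjusted p = 0.76), and 0% of all rows were. The SE of a single member's difference had a median of 0.34 (log2). The members' median difference, hindwing minus forewing, was 0.11, against -0.10 over all rows and -0.01 over the rows with at least 5 FPKM in the 4 knockouts. Hindwing means were higher in 103 members (68.7%), against 39.9% and 48.9% of these rows, and lower in 47. Scaling moved these shares: hindwing means were higher in 119 members (79.3%) and 60.2% of the latter rows with the median of ratios, and in 112 members (74.7%) and 56.7% with quantile normalization. Without knockout forewing 2 the members' median difference was 0.03, against 0 over all rows, so most of the excess rested on that library. Without 1 of the other knockout libraries it was 0.08 to 0.25, against -0.19 to -0.0044.

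In 35 members (23.3%) both hindwings were above both forewings, close to the 22.6% of rows with at least 5 FPKM in the 4 knockouts and above the 14.4% of all tested rows. In 10 members (6.67%) both hindwings were below, against 18.7% and 21.4%. In the other 105 members the wings overlapped.

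The separated difference was largest for c24072_g6, at 16.0 and 9.98 FPKM in the knockout forewings and 40.9 and 23.9 FPKM in the knockout hindwings (log2 difference 1.24, SE 0.41, adjusted p = 0.76, limma). It was at 2.06 and 3.58 FPKM in the wild types and 24.3 and 22.9 FPKM in the mosaic wings. The row c22818_g1 was at 13.0 and 10.01 FPKM in the knockout forewings and 29.1 and 21.8 FPKM in the hindwings (difference 1.08, SE 0.62, adjusted p = 0.774, limma). Neither difference passed the test, and the component sum of c24072_g6 had a gap of 0.07 (log2).

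In the opposite direction c26841_g4 was at 19.4 and 25.8 FPKM in the knockout forewings and 17.3 and 6.40 FPKM in the hindwings (difference -1.01, SE 0.51, adjusted p = 0.774, limma). The row c6619_g1 had forewings at 17.3 and 13.2 FPKM and hindwings at 5.22 and 10.1 FPKM (difference -0.95, SE 0.56, adjusted p = 0.774, limma). The differences of all members ran from -1.01 to 1.24.

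**Figure D4:**
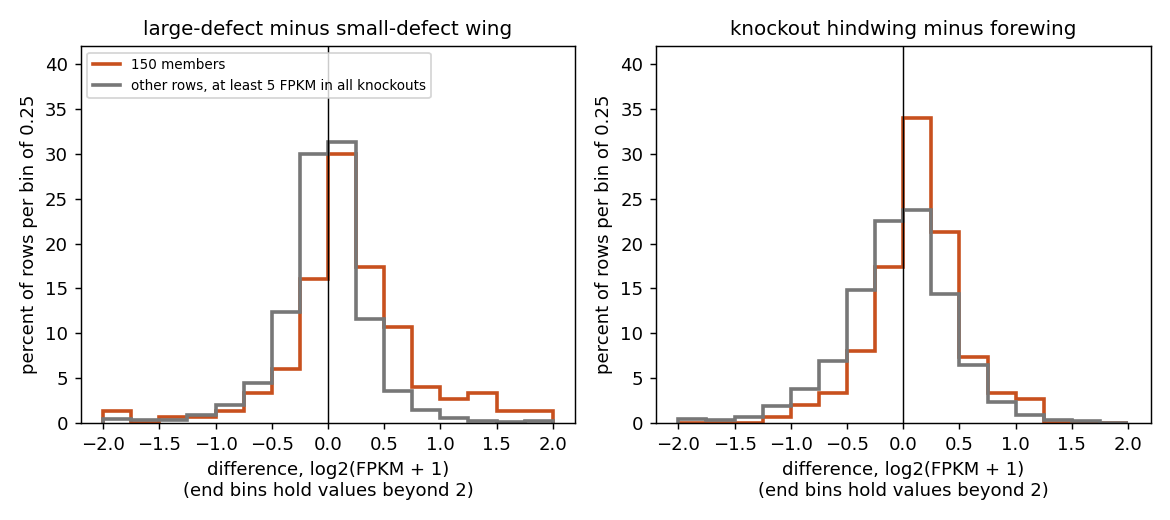
Distribution of differences in log2(FPKM + 1) for the 150 members (orange) and the other rows with at least 5 FPKM in all 4 knockouts (grey), as percent of rows per bin of 0.25, with values beyond 2 in the end bins. Left: large-defect minus small-defect ommochrome-stage wing, median 0.18 for the members; right: mean of knockout hindwings minus mean of knockout forewings, median 0.11.

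An assembler can divide a gene over several rows, which the identifiers show by a shared component (the part before the letter g). The 150 members came from 144 components. Of these, 69 (47.9%) had 1 row, against 56.3% of the 5753 components with a row of at least 5 FPKM in the 4 knockouts, and 75 had 2 to 16 rows. A member in a component of several rows held a median of 62.2% of the component's FPKM in the knockouts.

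Summed over all rows, 25 of the 75 components with several rows kept a gap of at least 1, and 38 had a gap between 0 and 1. In 12 there was no gap, as the lowest knockout was not above the highest wild type. Together with the 69 of 1 row, 94 of 144 components therefore had the gap of 1. For the other 50, the higher knockout level of the row was accompanied by other rows of the component that were not higher by as much.

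In 2 components a member stood beside rows that were lower in the knockouts by the same thresholds. In c28403, the member c28403_g5 was at 19.0 and 16.2 FPKM in the wild types and 65.6 to 80.3 FPKM in the knockouts, while c28403_g1 was at 11.7 and 13.8 FPKM and at 0.211 to 1.59 FPKM. The component sum was 52.3 and 81.2 FPKM in the wild types and 71.3 to 104 FPKM in the knockouts, so the groups overlapped.

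In c27578, the member c27578_g9 was at 7.36 and 10.4 FPKM in the wild types and 31.4 to 36.1 FPKM in the knockouts. Its neighbour c27578_g5 was at 15.9 and 24.2 FPKM in the wild types and at 0 in all 4 knockouts, and c27578_g7 was at 13.5 and 24.5 FPKM against 0.532 to 3.90 FPKM. The sum over the component, at 60.9 and 90.2 FPKM in the wild types and 47.7 to 63.6 FPKM in the knockouts, showed no rise. A lowered row was held by 2.67% of the members' components with several rows. Of all 2515 components of several rows with a row of at least 5 FPKM in the knockouts, 9.50% held one. In those a raised row was not required, so 9.50% is not a share of opposed rows. The components c28403 and c27578 were singled out after their values were seen.

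The reverse case was a component with 2 members, found 6 times (c21069, c25016, c26251, c26841, c27965 and c27977), also singled out after the values were seen. In c21069, c21069_g1 was at 8.79 and 3.32 FPKM in the wild types, 150 and 96.5 FPKM in the knockout forewings, 216 and 154 FPKM in the knockout hindwings, and 80.6 and 171 FPKM in the small-defect and large-defect wings. The levels of c21069_g2 in the same libraries were lower, at 0.717 and 0.336, 15.3 and 10.3, 18.5 and 12.6, and 9.50 and 14.6 FPKM. In both rows the large-defect wing was above the small-defect wing. Rows of a component may be parts of 1 gene, so the 150 members are not 150 independent observations.

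**Figure D5:**
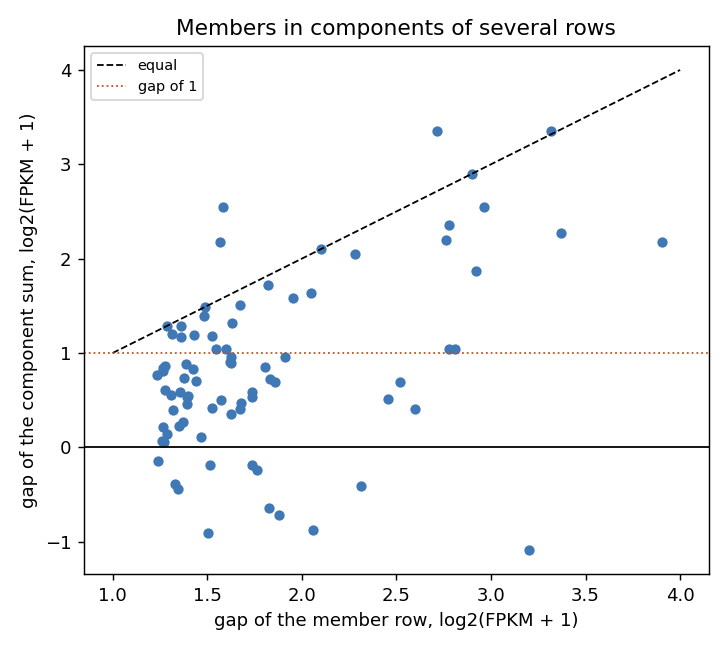
Gap of the component sum (vertical) against the gap of the member row (horizontal), both in log2(FPKM + 1), for the 81 members in components of several rows. Points under the solid line at 0 belong to the 12 components whose lowest knockout sum was not above the highest wild-type sum. Points on or above the dotted line belong to the 25 that keep a gap of 1.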

How the data were processed

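Libraries were poly(A)-selected and sequenced as paired 36-base reads, per the labels' protocols. The authors deposited FPKM per row of a transcriptome assembly; Bowtie2 was used, per the submitters' processing notes, and no source used here names the assembler, the counting program or a further normalization. Division by the library total is part of FPKM, so abundant rows shift all others. Of the table's columns, 8 match labelled V. cardui samples and 2 match none and were not used. The table of the other species was not used, since its identifiers do not correspond. Read numbers are unknown; relative depth came from ratios of values under 0.6 FPKM, fitted over 28 library pairs.

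Across all rows, limma 3.58.1 (R 4.3.3) fitted group means to the 6 melanin-stage libraries on log2(FPKM + 1), with a mean of at least 1 FPKM, moderation with trend, two-sided p-values, Benjamini-Hochberg adjustment and a threshold of 0.05; the procedure was tested on simulated data. P-values measure the spread between these libraries. Members and comparisons were chosen with earlier results of these data known. Rows were named by fixed ranks: the 2 largest gaps, the 2 most abundant, the last inside and first outside, and the 2 extreme rows each way for hindwing minus forewing (separated wings), large minus small defects (at least 10 FPKM in a wing) and ommochrome-stage wings against knockout forewings. Alternatives were a pseudocount of 0.1, other scalings and filters, a replicate block, other fits, component sums and leaving out libraries.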

Additional observations from a re-analysis of the deposited data

How the results depend on the processing

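The number of rows past the rule was 256. It was 147 components when rows were summed per component, 40 with a gap of at least 2, and 282 to 584 when 1 of the 6 libraries was left out. It was 584 without wild-type forewing 1, 511 without wild-type forewing 2, 414 without knockout forewing 2 and 428 without knockout hindwing 2. Leaving out a library can only keep or widen a gap, so these counts could not fall and all 150 members had to pass. The ranking changed. Of the members, 78 were among the 150 largest gaps without wild-type forewing 1. There were 83 without wild-type forewing 2 and 89 without knockout hindwing 2. The count of members called higher in knockout forewings (26, by limma) was 48 without the trend and 0 with a pseudocount of 0.1, without the filter, with a mean of at least 5 FPKM, with component sums or with the forewings fitted alone (unadjusted p under 0.05 in 126 to 150). It was 0 to 12 when a library was left out, with the remaining library of that group assumed to vary like the other groups. The cause was not tested.

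Same-numbered libraries did not deviate together (r across rows of 0.02, -0.03 and -0.10 between groups). With the replicate block the count of members called in the forewings was 0 (149 at an unadjusted p under 0.05), and none was called between the knockout wings. A block that crosses the knockout numbers, added after the data were seen, also called 0 members between the wings (limma; 9 at an unadjusted p under 0.05).

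At a difference of 0.5, 35 members were higher and 11 lower in the large-defect wing. Differences of 0.5 to 0.75 were held by 10.7% of members and 3.55% of the other rows with at least 5 FPKM in the knockouts. Those of -0.75 to -0.5 were held by 3.33% and 4.47%. From 0.75 to 1 the shares were 4% and 1.47%, and from -1 to -0.75 they were 1.33% and 1.98%. With 1 library per wing, these differences were not tested. Of the members' components, 69 had both ommochrome-stage wings at least 1 above the wild types, an alternative added after the data were seen. Without 1 wild type the count over members was 115 to 119, and it could not fall there. Of 137 values of single named rows under alternatives, 131 moved by less than their spread or kept their call, 6 moved more and 0 reversed. The spread was the largest replicate SD of the row in any group. For c55387_g1 and c27576_g1 it was that of the wild types, which were far apart. The gap of c27576_g1 with quantile normalization (0.72 in place of 1.43) therefore counted as unmoved, although it was under the minimum of the rule. Hindwing minus forewing differences kept their call if they held direction and stayed uncalled, whatever their size. That of c26841_g4 was -1.01, with -1.66 without knockout hindwing 1 and -0.36 without knockout hindwing 2. Gaps could not shrink when a library was left out, so part of this stability was set in advance. Depth limits values listed at 0, for rows other than the members above all in the shallow knockout forewing 1. The rule left no member at 0 in a knockout library. Members were at 0 in wild-type forewing 1 (11) and 2 (23), and in the small-defect (3) and large-defect wing (5).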
